A study of Mus musculus with 16 samples.

Results

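The genes described here are 32 members of the ATF4 and amino acid response, taken by name from the 55487 rows of the deposited gene tables. They comprise 12 stress response regulators, 8 enzymes of serine and one-carbon metabolism, 4 enzymes of asparagine, proline and cysteine synthesis, and 8 amino acid transporters. All 32 were in the table, and 31 had enough counts to be tested. The exception was Stc2, which encodes a secreted stress-induced glycoprotein and stood at 0 to 0.11 CPM (counts scaled to a common library size) in every library.

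Polyadenylated RNA was sequenced from cultured C57BL/6 mouse bone marrow cells that the series title calls mast cells and the cell type label calls mononuclear cells. The 4 groups of 4 libraries were Nbeal2-/- cells with IL-33, Nbeal2-/- cells without treatment, wild-type (WT) cells with IL-33 and WT cells without treatment. IL-33 is a cytokine released by damaged tissue whose receptor, ST2, is abundant on mast cells, and Nbeal2 encodes a BEACH-domain protein needed for platelet alpha granules. The sources used here do not give how much IL-33 was added or for how long, the mice's age and sex or which part of Nbeal2 was deleted. They also do not state whether the numbered cultures came from separate mice, so p-values measure the spread between these samples.

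ATF4 is a bZIP transcription factor whose protein is made when the initiation factor eIF2 is phosphorylated, as happens when amino acids run short, heme is lacking or unfolded protein builds up in the endoplasmic reticulum. It is also made downstream of mTORC1, the growth-promoting kinase complex. Its targets supply amino acids by synthesis and import, charge transfer RNAs and, under lasting stress, include feedback and death genes. Because ATF4 is controlled mainly in translation, the level of its transcript does not measure its activity.

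ATF4 binds as a heterodimer with C/EBP proteins to a composite element, and that element is shown here because it is the sequence feature that defines many of its targets. RefSeq promoter windows from 250 bases before to 50 bases after the start (GRCm38.p6) held an entry for 27 of the 32 members. The letters TGATGNAA, searched on both strands, occurred in the windows of 8 of these 27 members (29.6%). Among all genes searched they occurred in 1219 of 27025 with a window (4.51%). A chromosome that holds none of the members was left out of the search. The longer form TGATGNAAT, which contains the shorter one, occurred in 2 members (7.41%), Nupr1 and Pycr1, against 293 of the same 27025 genes (1.08%). A match is a run of letters and no measured binding site. In the sequences below, written 5′ to 3′ along the strand of the gene, the capitals mark the element, which reads as its reverse complement where it points away from the gene.

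The windows of Asns (chr6:7693210-7693459, minus strand) and Pycr1 (chr11:120643749-120643998, minus strand), enzymes of asparagine and proline synthesis, carry the element in the forward direction, with first bases 23 and 103 bases before the RefSeq start. The windows of Aldh18a1 and Psat1, which were also higher with IL-33 in both genotypes, held no match.
Asns: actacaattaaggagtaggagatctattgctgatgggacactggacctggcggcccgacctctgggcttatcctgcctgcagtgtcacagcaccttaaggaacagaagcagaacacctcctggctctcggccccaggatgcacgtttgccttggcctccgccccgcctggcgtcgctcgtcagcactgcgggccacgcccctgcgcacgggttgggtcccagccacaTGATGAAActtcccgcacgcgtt
Pycr1: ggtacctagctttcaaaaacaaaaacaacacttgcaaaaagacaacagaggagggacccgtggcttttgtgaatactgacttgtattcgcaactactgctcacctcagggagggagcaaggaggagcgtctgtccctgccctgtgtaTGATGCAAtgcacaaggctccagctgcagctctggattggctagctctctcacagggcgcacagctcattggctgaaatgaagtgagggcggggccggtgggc
Chac1 (chr2:119350992-119351241, plus strand) and Slc7a11 (chr3:50443614-50443863, minus strand) are shown as a gene that IL-33 raised and a gene that it lowered, and the Slc7a11 window holds 2 elements that face each other.
Chac1: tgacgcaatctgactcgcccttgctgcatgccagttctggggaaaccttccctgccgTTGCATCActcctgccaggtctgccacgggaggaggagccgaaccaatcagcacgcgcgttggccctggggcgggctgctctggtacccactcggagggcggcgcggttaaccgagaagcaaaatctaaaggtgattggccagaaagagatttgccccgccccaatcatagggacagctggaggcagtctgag
Slc7a11: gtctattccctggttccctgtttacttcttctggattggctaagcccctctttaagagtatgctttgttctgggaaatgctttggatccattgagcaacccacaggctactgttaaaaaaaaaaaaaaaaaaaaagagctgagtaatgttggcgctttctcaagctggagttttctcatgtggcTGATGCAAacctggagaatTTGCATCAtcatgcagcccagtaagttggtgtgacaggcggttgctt
Nupr1 (chr7:126625547-126625606, minus strand), Slc1a4 (chr11:20332699-20332728, minus strand), Trib3 (chr2:152344028-152344057, minus strand) and Vldlr (chr19:27216809-27216838, plus strand) each hold 1 element on the opposite strand, and shorter stretches around it suffice.
Nupr1: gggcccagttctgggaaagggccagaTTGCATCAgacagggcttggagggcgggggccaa
Slc1a4: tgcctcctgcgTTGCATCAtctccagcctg
Trib3: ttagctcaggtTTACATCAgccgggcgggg
Vldlr: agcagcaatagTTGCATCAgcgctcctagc

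**Figure D1:**
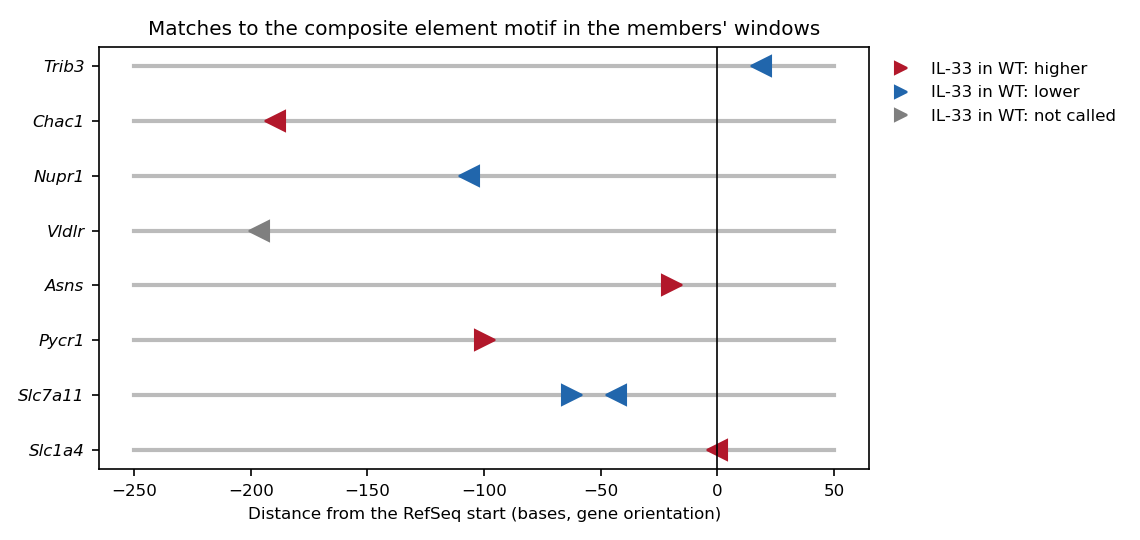
Position of each match to TGATGNAA in the windows of the 8 members that hold it, in bases from the RefSeq start (x axis, gene orientation). Arrows point along the element and are coloured by the call for IL-33 against untreated in WT cells: 4 of the 8 members were higher, 3 were lower and Vldlr was not called.

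Library totals ran from 36405209 to 57694499 counts. Nbeal2 transcript was lower in each Nbeal2-/- library than in any WT library, with a log2 fold change of -1.74 with IL-33 (SE 0.17, adjusted p = 1.05e-05) and -2.02 without it (SE 0.17, adjusted p = 1e-06) by edgeR's quasi-likelihood test. Nbeal2-/- cells kept counts of the gene, at 64.3 to 103 CPM. In the untreated groups the libraries numbered 1 differed most from the others, with a chi-square per degree of freedom of 42.5 to 67.8 in Nbeal2-/- cells and 36.8 to 47.1 in WT cells, where pairs of the other libraries reached 7.65 to 11.7 and 15.2 to 19.7. Summed transcripts of 4 Y-linked genes ran from 20.3 to 192 CPM over the Nbeal2-/- libraries and from 2.3 to 201 CPM over the WT libraries, and Xist from 0 to 1260 CPM and from 0.107 to 1850 CPM, so the cultures differed in sex-linked transcripts within each genotype. In untreated Nbeal2-/- libraries 1 to 4 the Y-linked sums were 160, 20.3, 119 and 156 CPM, and Xist 0.0396, 1260, 388 and 182 CPM. In untreated WT libraries 1 to 4 the sums were 186, 201, 18.7 and 2.3 CPM, and Xist 0.107, 0.198, 1320 and 1850 CPM. Nbeal2-/- libraries 3 and 4 thus held much of both, unlike any WT library, and likewise with IL-33. The genotypes were not matched in sex-linked transcripts. The part of these differences in the results on the members was not tested. Mast cell markers (10 of 10 tested, none at 0) summed to 51300 to 55700 CPM in Nbeal2-/- cells with IL-33, 42200 to 48300 CPM in untreated Nbeal2-/- cells, 61800 to 64800 CPM in WT cells with IL-33 and 57400 to 60200 CPM in untreated WT cells. With IL-33 the means of Tpsb2, Cma1, Hdc and Gata2 were higher in each genotype, and those of Kit, Mitf and Cpa3 lower. Tpsb2 averaged 11100 and 3130 CPM with and without IL-33 in Nbeal2-/- cells, and 18600 and 9760 CPM in WT cells. Kit averaged 1140 and 2470 CPM with and without IL-33 in Nbeal2-/- cells, and 1630 and 3850 CPM in WT cells. Macrophage and monocyte markers stayed at or under 37.1 CPM in sum, lymphocyte and dendritic cell markers at or under 7.5 CPM, erythroid markers at or under 13.8 CPM and neutrophil markers at or under 0.0532 CPM. Basophil markers (4 of 4 tested, none at 0) summed to 350 to 376 CPM in Nbeal2-/- cells with IL-33, 375 to 409 CPM in untreated Nbeal2-/- cells, 376 to 425 CPM in WT cells with IL-33 and 432 to 504 CPM in untreated WT cells. Among them Mcpt8 averaged 51.9 ± 7.19 CPM with IL-33 and 7.61 ± 1.96 CPM without it in Nbeal2-/- cells, and 97.8 ± 8.27 CPM with IL-33 and 5.49 ± 2.14 CPM without it in WT cells, whereas Cd200r3 averaged 233 ± 10.9 and 302 ± 17.2 CPM with and without IL-33 in Nbeal2-/- cells and 221 ± 29.3 and 369 ± 33.3 CPM in WT cells (SD, n = 4 each). Megakaryocyte and platelet markers (4 of 6 tested, Ppbp at 0) summed to 1450 to 1580 CPM in Nbeal2-/- cells with IL-33, 2090 to 2360 CPM in untreated Nbeal2-/- cells, 1470 to 1500 CPM in WT cells with IL-33 and 2390 to 2500 CPM in untreated WT cells. Itga2b made up most of these sums, averaging 1460 and 1950 CPM with and without IL-33 in Nbeal2-/- cells, and 1410 and 2090 CPM in WT cells. Pf4 averaged at most 0.02 CPM in every group. With IL-33 Gp1ba and Gp5 were lower in each genotype. Gp9 was higher, averaging 2.08 and 0.238 CPM with and without IL-33 in Nbeal2-/- cells, and 2.63 and 0.377 CPM in WT cells. The part of the mast cell, basophil and megakaryocyte marker shifts in the results on the members was not tested. In bulk RNA, fewer cells of a type and less RNA per cell cannot be told apart.

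Levels were compared between genes per length, as RPKM (reads scaled by transcript length and library size). In untreated WT cells the order began with Slc3a2, the heavy chain shared by several amino acid exchangers, at 138 ± 8.81 RPKM and Atf4 at 109 ± 7.29 RPKM (SD, n = 4). It went on with Ddit4, an inhibitor of mTORC1, at 64.1 ± 4.07 RPKM. Ppp1r15a, which recruits a phosphatase to eIF2, followed at 36.5 ± 3 RPKM. The next in order, Slc1a5 (32.1 ± 2.78 RPKM) and Mthfd2 (31.7 ± 2.33 RPKM), differed from each other by less than the spread between libraries, and Shmt2 came after them at 29.1 ± 2.07 RPKM. In Nbeal2-/- cells with IL-33, Atf4 came first at 143 ± 4.35 RPKM, before Slc3a2 at 99.9 ± 4.65 RPKM. A mean of over 10 RPKM was reached in every group by 12 members: Atf4, Ddit3, Ddit4, Ppp1r15a, Shmt2, Mthfd2, Mthfd1l, Aldh18a1, Slc3a2, Slc7a5, Slc1a5 and Slc38a2. Another 5 members stayed under 1 RPKM in every group: Chac1, Vldlr, Aldh1l2, Slc7a11 and Stc2.

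**Figure D2:**
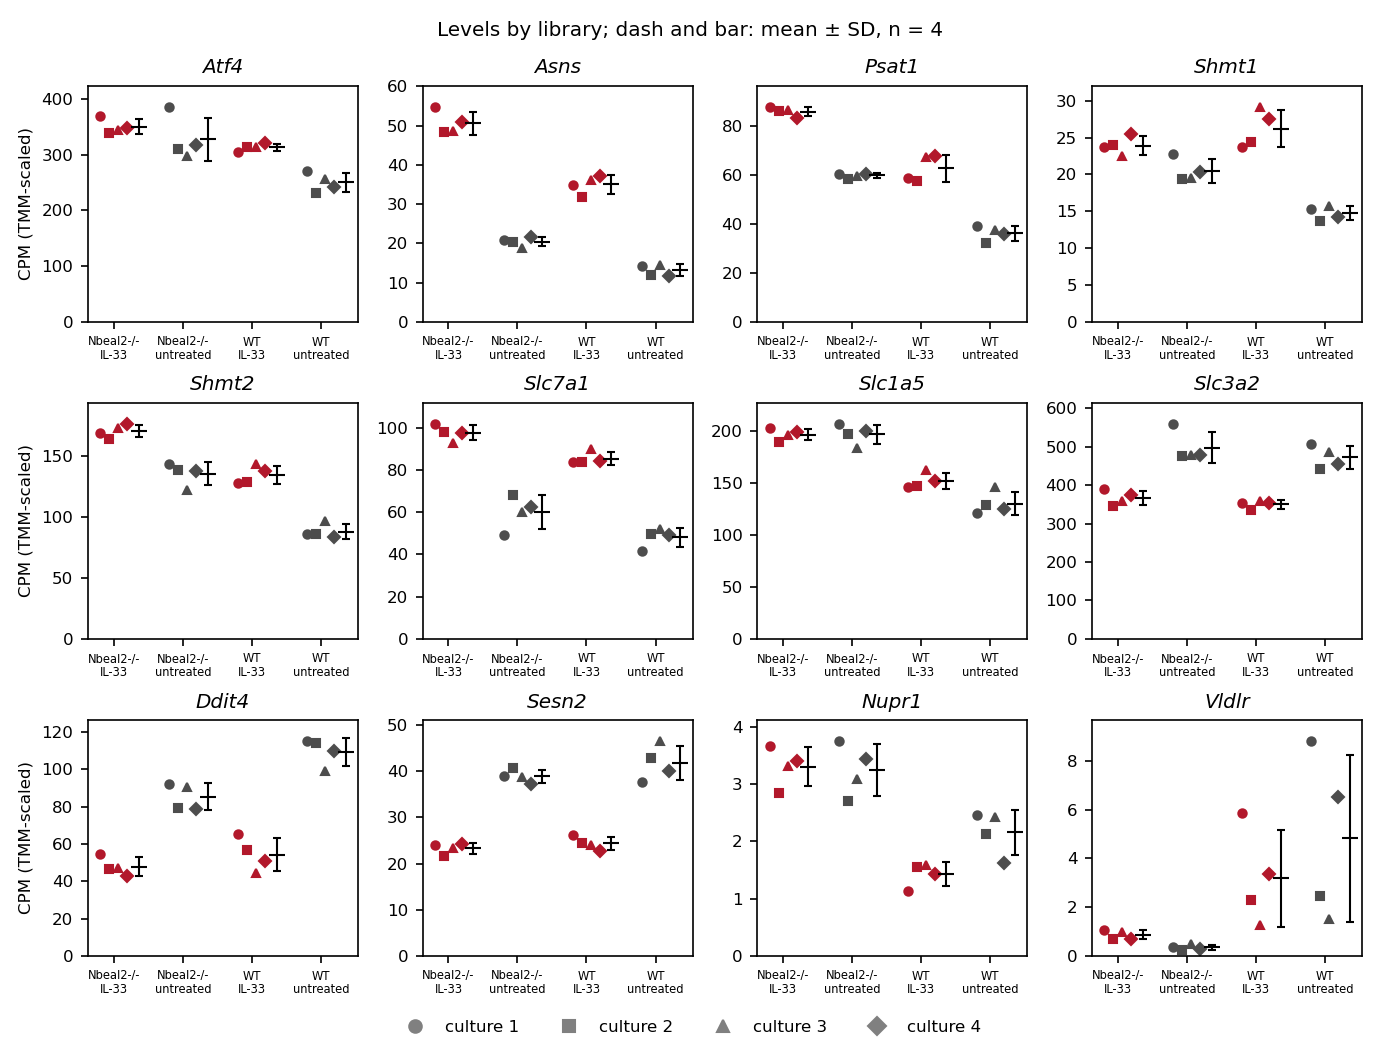
Levels of 12 members in CPM with TMM scaling (y axes start at 0) in the 4 groups, with 1 marker a library shaped by culture number and the mean ± SD (n = 4) beside it; IL-33 groups are red. Asns lay at 48.3 to 54.7 CPM in Nbeal2-/- cells with IL-33 and at 11.7 to 14.6 CPM in untreated WT cells, while Ddit4 and Sesn2 were lower with IL-33 in both genotypes.

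The first question was how IL-33 moved the pathway. Asparagine and proline enzymes, part of the serine and one-carbon enzymes and most of the 8 member transporters rose. Ddit4, Sesn2 and both chains of the cystine exchanger fell. Of 14 other amino acid transporters tested, outside the members, 3 were higher and 8 lower in each genotype (78.6% called). In Nbeal2-/- cells 15 of 31 members were higher and 6 lower at an adjusted p under 0.05, and in WT cells 16 were higher and 7 lower. Of all 15470 genes tested, 55.1% were called in Nbeal2-/- cells (27.2% higher and 27.9% lower) and 57.6% in WT cells (28.9% higher and 28.6% lower). Members were thus called in 67.7% and all genes in 55.1% of cases in Nbeal2-/- cells, and in 74.2% and 57.6% of cases in WT cells. The median log2 fold change of the members was 0.18 in Nbeal2-/- cells (all genes -0.01) and 0.19 in WT cells (all genes 0.00). Libraries with and without IL-33 did not overlap for 19 members in Nbeal2-/- cells (50.7% of all genes) and for 20 in WT cells (52.3% of all genes). A change of more than 1 on the log2 scale was called for 5 members in Nbeal2-/- cells (12.5% of all genes) and 6 in WT cells (13.1% of all genes). In both genotypes 14 members were called higher and 4 lower, and no member was called in opposite directions. On deposited RPM values with limma, which uses no TMM scaling, 11 members were higher and 7 lower in Nbeal2-/- cells and 14 were higher and 9 lower in WT cells. On that scale 33.8% of called genes were higher in Nbeal2-/- cells, against 49.4% with TMM, and 38.1% in WT cells, against 50.3% with TMM.

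**Figure D3:**
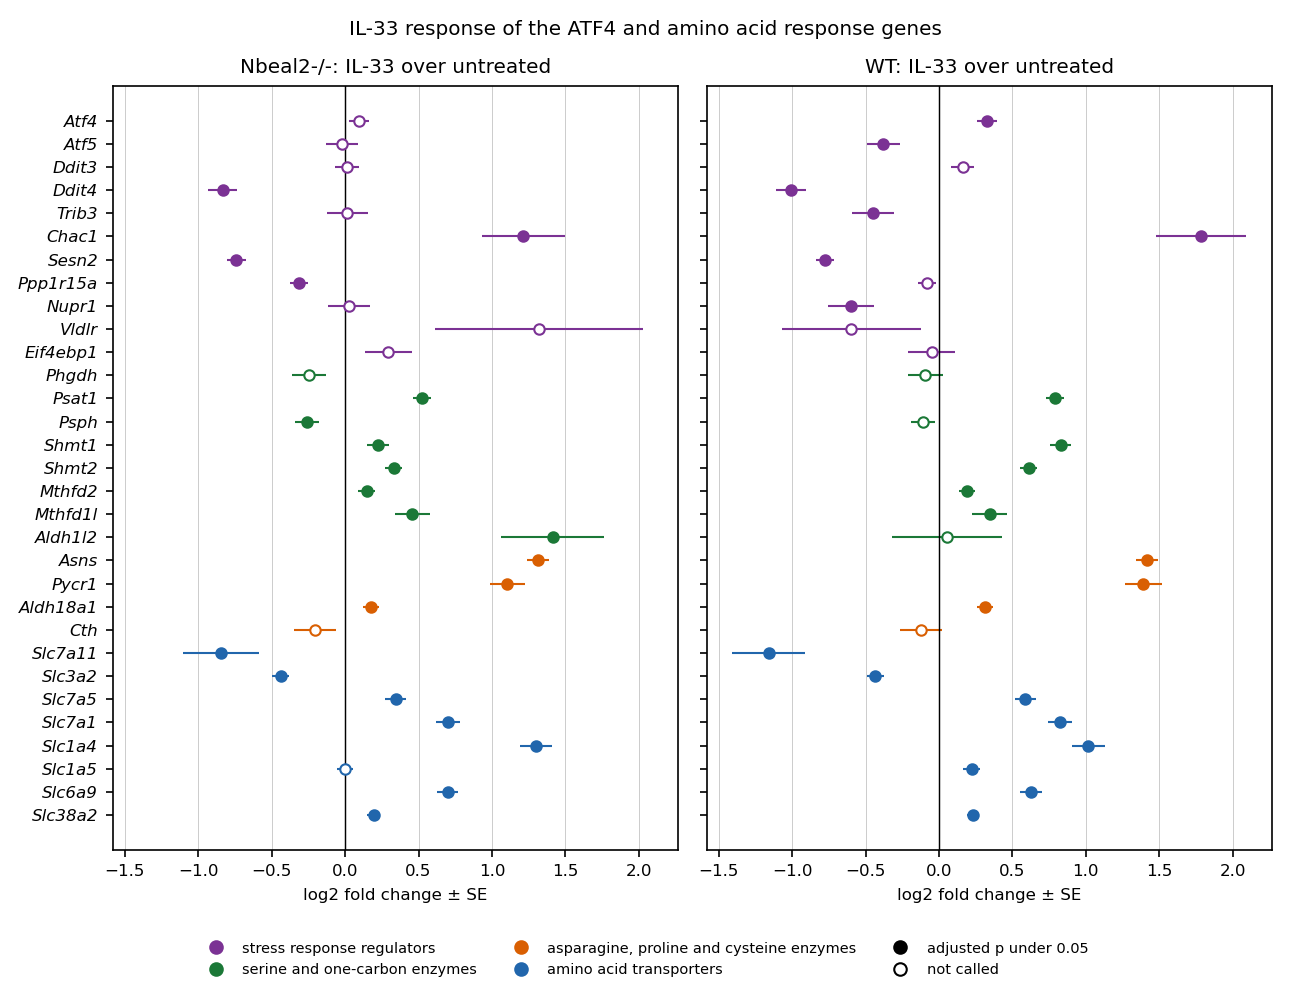
Log2 fold change of IL-33 over untreated (x axis, point ± SE) for the 31 tested members in Nbeal2-/- cells (left) and WT cells (right), coloured by role; filled points passed an adjusted p of 0.05. Asns, Pycr1, Chac1 and Slc1a4 lie furthest to the right among the filled points of the WT panel, and Slc7a11, Ddit4 and Sesn2 furthest to the left in both panels.

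Of the 4 enzymes that make asparagine, proline and cysteine, 3 rose in each genotype and none fell. Asns, asparagine synthetase, had 54.7, 48.3, 48.7 and 51 CPM with IL-33, against 21, 20.3, 18.8 and 21.6 CPM without it, in Nbeal2-/- cells. In WT cells it had 35, 31.8, 36.3 and 37.1 CPM with IL-33 and 14.3, 11.9, 14.6 and 11.7 CPM without it. All IL-33 libraries of a genotype lay above all its untreated ones, and the log2 fold change was 1.31 in Nbeal2-/- cells (SE 0.07, adjusted p = 1e-10) and 1.42 in WT cells (SE 0.08, adjusted p = 4.72e-11). Pycr1, the mitochondrial enzyme of the last step of proline synthesis, averaged 6.65 ± 0.789 CPM with IL-33 and 3.1 ± 0.283 CPM without it in Nbeal2-/- cells, and 4.34 ± 0.413 and 1.64 ± 0.282 CPM with and without IL-33 in WT cells (SD, n = 4 each). Its log2 fold change was 1.1 in Nbeal2-/- cells (SE 0.12, adjusted p = 3.45e-07) and 1.39 in WT cells (SE 0.13, adjusted p = 4.58e-08). Aldh18a1, which opens proline synthesis from glutamate, rose by less, with log2 fold changes of 0.18 (SE 0.05, adjusted p = 0.0106) in Nbeal2-/- cells and 0.31 (SE 0.05, adjusted p = 8.29e-05) in WT cells. The call in Nbeal2-/- cells was lost on deposited RPM values with limma (Aldh18a1 log2 fold change 0.06, adjusted p = 0.383), with upper-quartile scaling (0.12, adjusted p = 0.0682), without the Nbeal2-/- IL-33 library 1 (0.12, adjusted p = 0.085) and without all libraries numbered 1 (0.09, adjusted p = 0.0722). Cth, which makes cysteine from cystathionine, was not called in either genotype, with log2 fold changes of -0.20 (SE 0.14) and -0.12 (SE 0.14).

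Among the serine and one-carbon enzymes 6 of 8 were higher and 1 lower in Nbeal2-/- cells, and 5 were higher and none lower in WT cells. On deposited RPM values with limma these counts were 4 and 2 in Nbeal2-/- cells and 3 and 1 in WT cells. Psat1, the aminotransferase of serine synthesis, had 87.8, 86.1, 86.6 and 83.4 CPM with IL-33 and 60.6, 58.6, 59.8 and 60.6 CPM without it in Nbeal2-/- cells. In WT cells it had 58.7, 57.5, 67.4 and 67.8 CPM with IL-33, against 39.1, 32.1, 37.8 and 36.2 CPM without it. The groups did not overlap in either genotype, and the log2 fold change was 0.52 in Nbeal2-/- cells (SE 0.06, adjusted p = 1.16e-06) and 0.79 in WT cells (SE 0.06, adjusted p = 6.48e-09). The other enzymes of the serine route did not rise. Phgdh, its first enzyme, had log2 fold changes of -0.25 (SE 0.11, adjusted p = 0.0773) and -0.09 (SE 0.12, adjusted p = 0.522) in Nbeal2-/- and WT cells, and the fit with culture as a block called it lower in Nbeal2-/- cells (log2 fold change -0.25, adjusted p = 0.0196). Psph, its last enzyme, fell in Nbeal2-/- cells by 0.26 on the log2 scale (SE 0.08, adjusted p = 0.0121) and had a log2 fold change of -0.11 in WT cells (adjusted p = 0.26).

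Shmt2, the mitochondrial serine hydroxymethyltransferase that passes a carbon of serine to folate, averaged 170 ± 5.14 CPM with IL-33 and 135 ± 9.15 CPM without it in Nbeal2-/- cells, and 134 ± 7.5 CPM with IL-33 and 87.8 ± 6.01 CPM without it in WT cells (SD, n = 4 each). The log2 fold changes were 0.33 (SE 0.06, adjusted p = 8.87e-05) and 0.61 (SE 0.06, adjusted p = 6.5e-08) in Nbeal2-/- and WT cells. Mthfd1l, the mitochondrial enzyme that yields formate, rose by log2 fold changes of 0.46 (SE 0.12, adjusted p = 0.00366) in Nbeal2-/- cells and 0.35 (SE 0.12, adjusted p = 0.02) in WT cells. The WT call was lost without WT IL-33 library 1 or 4 or untreated WT library 2 or 3 (log2 fold changes 0.30, 0.27, 0.31 and 0.22, adjusted p from 0.0559 to 0.0821), without the filter (adjusted p = 0.0637), with only the WT groups fitted (adjusted p = 0.0849) and with limma (0.27, adjusted p = 0.0625). Mthfd2, the mitochondrial dehydrogenase between them, rose by log2 fold changes of 0.15 (SE 0.05, adjusted p = 0.0319) and 0.19 (SE 0.05, adjusted p = 0.00635). The Mthfd2 calls depended on the scaling: on deposited RPM values with limma the log2 fold changes were 0.03 (adjusted p = 0.618) in Nbeal2-/- cells and 0.10 (adjusted p = 0.102) in WT cells, and with upper-quartile scaling 0.09 (adjusted p = 0.175) and 0.13 (adjusted p = 0.0521). The Nbeal2-/- call was also lost without the filter (adjusted p = 0.0894) and without IL-33 library 1 or 3 or untreated library 2, 3 or 4 (adjusted p from 0.0698 to 0.165), and the WT call without IL-33 library 3 (0.14, adjusted p = 0.0525). Aldh1l2, a mitochondrial formyl-folate dehydrogenase, was rare, with 0.43, 0.385, 0.371 and 0.468 CPM with IL-33 and 0.159, 0.201, 0.0816 and 0.171 CPM without it in Nbeal2-/- cells. It rose there by a log2 fold change of 1.41 (SE 0.35, adjusted p = 0.00243) and had 0.06 in WT cells (SE 0.38, adjusted p = 0.913), and the difference between these responses was not called (1.36, SE 0.52, adjusted p = 0.158).

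With IL-33, 5 of 8 amino acid transporters were higher and 2 lower in Nbeal2-/- cells, and 6 were higher and 2 lower in WT cells. Slc1a4, a carrier of alanine, serine, cysteine and threonine, had 10.3, 9.55, 9.96 and 9.29 CPM with IL-33 and 3.95, 4.43, 3.59 and 3.89 CPM without it in Nbeal2-/- cells. In WT cells it had 5.91, 6.78, 6.77 and 6.69 CPM with IL-33 and 2.66, 3.51, 4.03 and 2.8 CPM without it. The groups were apart in both genotypes, with log2 fold changes of 1.30 in Nbeal2-/- cells (SE 0.11, adjusted p = 1.35e-08) and 1.02 in WT cells (SE 0.11, adjusted p = 4.61e-07). Slc7a1, the carrier of arginine and lysine, rose by log2 fold changes of 0.70 (SE 0.08, adjusted p = 1.05e-06) and 0.83 (SE 0.08, adjusted p = 1.37e-07) in Nbeal2-/- and WT cells, and the glycine carrier Slc6a9 by 0.70 (SE 0.07, adjusted p = 2.4e-07) and 0.63 (SE 0.07, adjusted p = 9.38e-07). Slc7a5, the light chain of the leucine exchanger LAT1, rose by 0.35 (SE 0.07, adjusted p = 0.000501) and 0.59 (SE 0.07, adjusted p = 1.68e-06). Slc38a2, the carrier SNAT2 of small neutral amino acids, rose by 0.19 and 0.23 (SE 0.04 each, adjusted p = 0.000836 and 0.000162), and its call in Nbeal2-/- cells was lost on deposited RPM values with limma (0.08, adjusted p = 0.152). The glutamine carrier Slc1a5 averaged 197 ± 5.7 CPM with IL-33 and 197 ± 9.49 CPM without it in Nbeal2-/- cells, where it was not called, and 152 ± 7.74 and 130 ± 10.8 CPM in WT cells (log2 fold change 0.22, SE 0.06, adjusted p = 0.00246).

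Both chains of the cystine-glutamate exchanger fell. Slc3a2, the heavy chain that Slc7a5 shares, had 389, 346, 358 and 374 CPM with IL-33 and 558, 475, 478 and 477 CPM without it in Nbeal2-/- cells, and 352, 334, 359 and 353 CPM with IL-33, against 508, 442, 486 and 454 CPM without it, in WT cells. Every IL-33 library lay below every untreated one, and levels fell by 0.44 on the log2 scale in Nbeal2-/- cells (SE 0.06, adjusted p = 6.46e-06) and by 0.43 in WT cells (SE 0.06, adjusted p = 7.01e-06). Slc7a11, the light chain xCT, whose window holds the pair of facing elements, was at the edge of detection. It averaged 0.347 ± 0.13 CPM with IL-33 and 0.621 ± 0.134 CPM without it in Nbeal2-/- cells (log2 fold change -0.85, SE 0.26, adjusted p = 0.0106), and 0.389 ± 0.0911 CPM with IL-33 and 0.875 ± 0.11 CPM without it in WT cells (log2 fold change -1.16, SE 0.25, adjusted p = 0.000606).

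Of the 11 stress response regulators tested, 1 was higher and 3 lower in Nbeal2-/- cells, and 2 were higher and 5 lower in WT cells. Ddit4 had 54.7, 46.5, 47.1 and 42.8 CPM with IL-33 and 92.2, 79.4, 90.7 and 78.6 CPM without it in Nbeal2-/- cells, and 65.1, 56.5, 44.5 and 51 CPM with IL-33, against 115, 114, 98.8 and 110 CPM without it, in WT cells. It fell by 0.83 on the log2 scale in Nbeal2-/- cells (SE 0.10, adjusted p = 1.63e-06) and by 1.01 in WT cells (SE 0.10, adjusted p = 1.43e-07). Sesn2, a leucine-binding inhibitor of mTORC1 signalling, averaged 23.3 ± 1.11 CPM with IL-33 and 38.9 ± 1.44 CPM without it in Nbeal2-/- cells, and 24.4 ± 1.37 and 41.7 ± 3.76 CPM with and without IL-33 in WT cells (SD, n = 4 each). It fell by 0.74 (SE 0.06, adjusted p = 1.83e-08) and 0.78 (SE 0.06, adjusted p = 9.18e-09) on the log2 scale, so both ATF4 targets that restrain mTORC1 were lower with IL-33 in each genotype. Eif4ebp1, the translation repressor that mTORC1 phosphorylates, was not called in either genotype, but the fit with culture as a block called it higher in Nbeal2-/- cells (log2 fold change 0.29, adjusted p = 0.0183).

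Atf4 itself had 369, 339, 343 and 347 CPM with IL-33 and 384, 310, 298 and 317 CPM without it in Nbeal2-/- cells, where the groups overlapped (log2 fold change 0.10, SE 0.07, adjusted p = 0.245). In WT cells it had 304, 314, 314 and 320 CPM with IL-33 and 271, 232, 256 and 242 CPM without it, and it rose there by a log2 fold change of 0.32 (SE 0.07, adjusted p = 0.000515). Chac1, which degrades glutathione, rose by the largest log2 fold change of a called member in WT cells, 1.79 (SE 0.31, adjusted p = 8.57e-05), and by 1.21 (SE 0.28, adjusted p = 0.00148) in Nbeal2-/- cells. Its level was low, at 0.736, 0.616, 0.571 and 0.788 CPM with IL-33 and 0.317, 0.402, 0.163 and 0.278 CPM without it in Nbeal2-/- cells. In WT cells it had 0.48, 0.421, 0.651 and 0.93 CPM with IL-33 and 0.124, 0.173, 0.222 and 0.2 CPM without it. The feedback inhibitor Trib3 (log2 fold change -0.45, SE 0.14, adjusted p = 0.0122), the ATF4 relative Atf5 (-0.38, SE 0.11, adjusted p = 0.00739) and the stress-induced chromatin protein gene Nupr1 (-0.60, SE 0.16, adjusted p = 0.00325) fell in WT cells. Their log2 fold changes in Nbeal2-/- cells were 0.02, -0.02 and 0.03, none of them called, and the differences between genotypes were not called either (adjusted p from 0.105 to 0.223). With culture as a block the difference for Atf5 was called (0.36, adjusted p = 0.0318). Ppp1r15a fell in Nbeal2-/- cells by 0.31 on the log2 scale (SE 0.06, adjusted p = 0.000221) and had a log2 fold change of -0.08 in WT cells (adjusted p = 0.258). Ddit3, the death-promoting factor CHOP, was not called in either genotype, at 23.4 ± 0.722 and 23.2 ± 3.22 CPM with and without IL-33 in Nbeal2-/- cells and 24.5 ± 1.33 and 21.9 ± 1.65 CPM in WT cells (SD, n = 4 each). Several members have an exon overlapped by a gene on the opposite strand, among them Atf5 (Il4i1, Nup62), Ddit3 (Mars), Psph (Cct6a), Shmt1 (Smcr8), Shmt2 (Ndufa4l2) and Slc6a9 (B4galt2), and since the strand setting of the counting is not given, their counts are uncertain to that extent. Ddit3 also has 2 rows, whose exons overlap on the same strand, and the row with the larger total count was used. How reads in their shared exons were counted is not given.

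The second question was what loss of Nbeal2 did to the same genes. Of 31 members, 13 were higher and 1 lower in Nbeal2-/- than in WT cells with IL-33, where 11.2% of all genes were called (5.49% higher and 5.69% lower). Without IL-33, 17 members were higher and 2 lower, where 35.9% of all genes were called (18.4% higher and 17.5% lower). The share of members called was 45.2% with IL-33 and 61.3% without it. This order depended on the fit: with only the compared groups fitted, 17 members were higher and 1 lower with IL-33. Without IL-33 that fit gave 15 higher and 2 lower. It called 3099 genes with IL-33 and 3836 without it, against 1730 and 5549 in the reported fit. The median log2 fold change of the members was 0.22 with IL-33 and 0.30 without it, against 0.00 and -0.01 over all genes. Libraries of the genotypes did not overlap for 18 members with IL-33 (22.9% of all genes) and 17 without it (28.2% of all genes). A change of over 1 on the log2 scale was called for 2 members with IL-33 (Nupr1 and Vldlr, 1.73% of all genes) and for Vldlr alone without it (3.37% of all genes). In both conditions 12 members were called higher: Nupr1, Psat1, Shmt2, Mthfd2, Asns, Pycr1, Aldh18a1, Slc7a5, Slc1a4, Slc1a5, Slc6a9 and Slc38a2. The genotype contrasts share libraries with the IL-33 contrasts, so the calls are not independent of them.

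**Figure D4:**
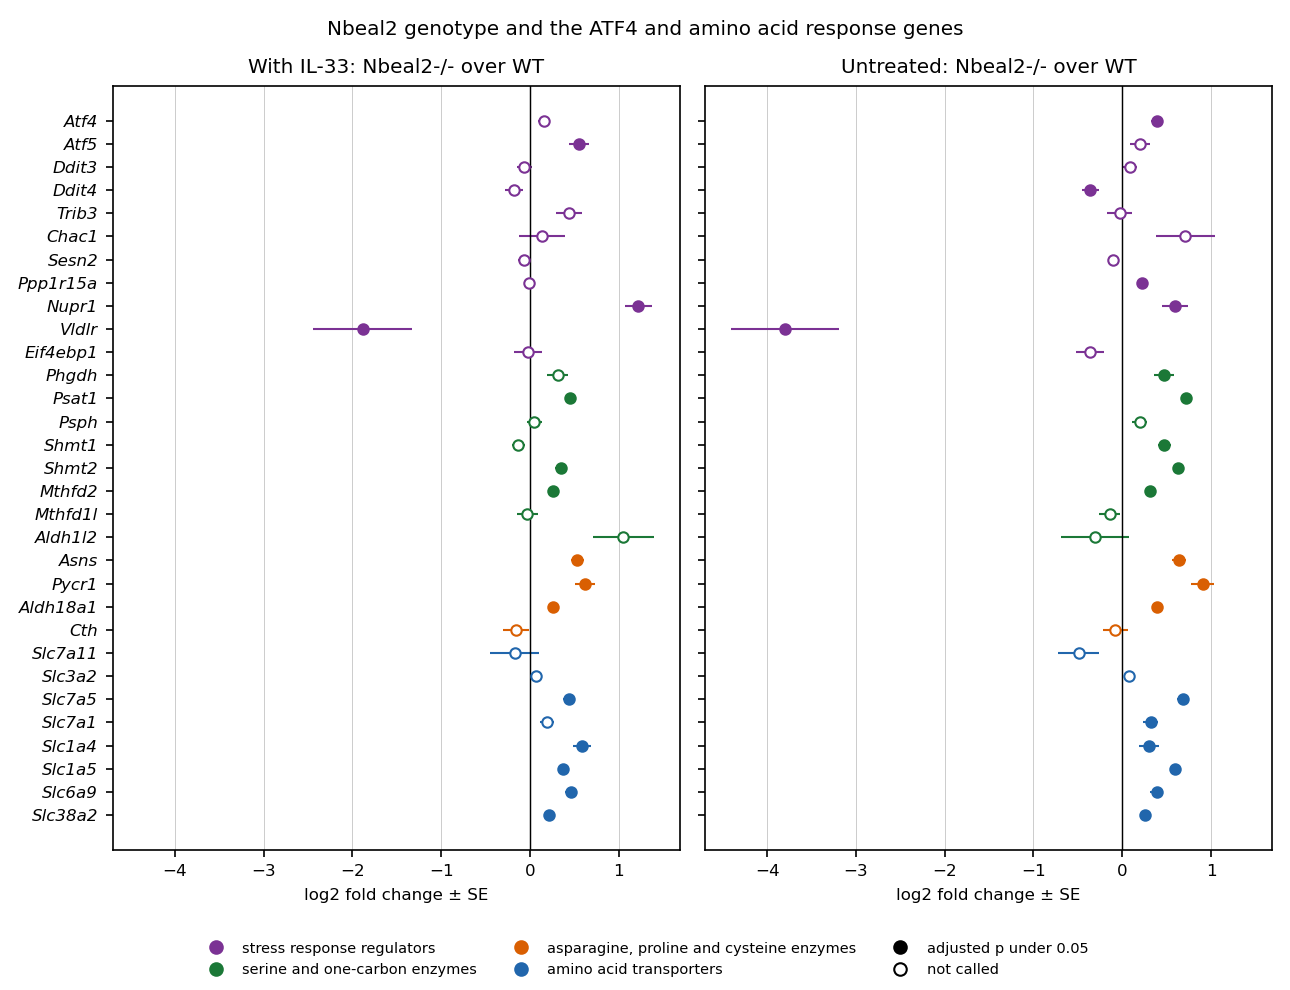
Log2 fold change of Nbeal2-/- over WT (x axis, point ± SE) for the 31 tested members with IL-33 (left) and untreated (right), coloured by role; filled points passed an adjusted p of 0.05. Most filled points lie between 0 and 1, Nupr1 is at 1.22 with IL-33, and Vldlr is at -1.88 with IL-33 and -3.80 untreated.

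Asns was higher in Nbeal2-/- cells by a log2 fold change of 0.53 with IL-33 (SE 0.07, adjusted p = 0.000132) and 0.64 without it (SE 0.08, adjusted p = 1.29e-05), and the libraries listed above did not overlap between genotypes in either condition. Pycr1 was higher by 0.62 (SE 0.12, adjusted p = 0.00185) with IL-33 and 0.91 (SE 0.13, adjusted p = 6.05e-05) without it. Aldh18a1 was higher by 0.26 and 0.40 (SE 0.05 each, adjusted p = 0.00448 and 4.35e-05). Psat1 was higher by 0.45 (SE 0.06, adjusted p = 0.000117) with IL-33 and 0.72 (SE 0.06, adjusted p = 4.03e-07) without it, and Shmt2 by 0.34 (SE 0.06, adjusted p = 0.000711) and 0.63 (SE 0.06, adjusted p = 8.29e-07). Mthfd2 was higher by 0.26 and 0.31 (SE 0.05 each, adjusted p = 0.00437 and 0.000447). Without IL-33 Phgdh was also higher, at 14.3, 12.3, 11.3 and 10.8 CPM in Nbeal2-/- cells and 9.8, 8.04, 9.37 and 8.1 CPM in WT cells (log2 fold change 0.47, SE 0.11, adjusted p = 0.00468). With IL-33 it had a log2 fold change of 0.31 that was not called (adjusted p = 0.0985). Of 8 serine and one-carbon enzymes, 3 were higher with IL-33 and 5 without it, and none was lower.

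Of the 8 transporters, 5 were higher with IL-33 and 6 without it, and none was lower. Slc1a5 had 202, 189, 196 and 199 CPM in Nbeal2-/- cells with IL-33, against 146, 147, 163 and 152 CPM in WT cells with IL-33. Without IL-33 it had 206, 197, 184 and 200 CPM in Nbeal2-/- cells and 122, 129, 146 and 125 CPM in WT cells. The genotypes did not overlap, and the log2 fold change was 0.37 with IL-33 (SE 0.06, adjusted p = 3e-04) and 0.60 without it (SE 0.06, adjusted p = 1.09e-06). Slc7a5 was higher by 0.44 (SE 0.07, adjusted p = 0.000579) and 0.69 (SE 0.07, adjusted p = 3.28e-06), Slc6a9 by 0.46 (SE 0.07, adjusted p = 0.000408) and 0.39 (SE 0.07, adjusted p = 0.000633), and Slc38a2 by 0.22 and 0.26 (SE 0.04 each), with and without IL-33. Slc1a4 was higher by 0.58 with IL-33 (SE 0.10, adjusted p = 0.00138) and by 0.30 without it (SE 0.11, adjusted p = 0.048). The call without IL-33 was lost without untreated Nbeal2-/- library 1, 2 or 4 or untreated WT library 1, 2 or 4 (log2 fold changes 0.21 to 0.34, adjusted p from 0.05 to 0.157), with upper-quartile scaling (adjusted p = 0.0589), with only the untreated groups fitted (adjusted p = 0.152) and without all libraries numbered 1 (adjusted p = 0.164). Slc7a1 was higher without IL-33 (log2 fold change 0.32, SE 0.08, adjusted p = 0.00639; adjusted p = 0.051 with only the untreated groups fitted) and not called with it (0.19, adjusted p = 0.144). Slc3a2 and Slc7a11 were not called in either condition.

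Among the regulators Atf4 was higher in untreated Nbeal2-/- cells by a log2 fold change of 0.39 (SE 0.07, adjusted p = 0.000383), with no overlap of the libraries. With IL-33 its log2 fold change was 0.16 (SE 0.07, adjusted p = 0.146), although the libraries again did not overlap. Nupr1 had 3.66, 2.85, 3.31 and 3.4 CPM in Nbeal2-/- cells with IL-33 and 1.14, 1.56, 1.59 and 1.44 CPM in WT cells with IL-33. Without IL-33 it had 3.75, 2.71, 3.1 and 3.45 CPM in Nbeal2-/- cells and 2.47, 2.13, 2.42 and 1.62 CPM in WT cells. It was higher by log2 fold changes of 1.22 with IL-33 (SE 0.15, adjusted p = 5.68e-05) and 0.59 without it (SE 0.14, adjusted p = 0.00463). Atf5 was higher with IL-33 (log2 fold change 0.56, SE 0.11, adjusted p = 0.0033) and had 0.20 without it (adjusted p = 0.168). Ppp1r15a was higher by 0.22 without IL-33 (SE 0.06, adjusted p = 0.00826), and Ddit4 was lower, with a log2 fold change of -0.36 (SE 0.10, adjusted p = 0.00947).

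Vldlr, a lipoprotein receptor that is an ATF4 target in other cells, went the other way. It had 1.08, 0.693, 0.999 and 0.715 CPM in Nbeal2-/- cells with IL-33 and 5.85, 2.28, 1.25 and 3.34 CPM in WT cells with IL-33. Without IL-33 it had 0.377, 0.256, 0.489 and 0.278 CPM in Nbeal2-/- cells and 8.8, 2.45, 1.51 and 6.54 CPM in WT cells. The WT libraries spread widely, yet within each condition the highest Nbeal2-/- value was under the lowest WT value. The log2 fold change was -1.88 with IL-33 (SE 0.56, adjusted p = 0.0421) and -3.80 without it (SE 0.61, adjusted p = 0.000304). The call with IL-33 was lost without any 1 Nbeal2-/- IL-33 library or WT IL-33 library 1 or 4 (log2 fold changes -1.39 to -2.02, adjusted p from 0.0764 to 0.145). It was also lost without the filter, with limma and without all libraries numbered 1 (-1.04 to -1.88, adjusted p from 0.0503 to 0.161). With culture as a block, IL-33 raised Vldlr in Nbeal2-/- cells (log2 fold change 1.32, adjusted p = 0.000291) and lowered it in WT cells (-0.55, adjusted p = 0.00278), while without the block neither was called (adjusted p = 0.129 and 0.3).

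Whether the IL-33 response differed between genotypes was tested directly. In the reported fit, which does not pair libraries by culture, it was called for 1 member of 31 (3.23%). Of all genes 4.56% were called (2.01% higher and 2.55% lower in Nbeal2-/- cells). That member was Shmt1, the cytosolic serine hydroxymethyltransferase. It had 23.7, 24, 22.4 and 25.5 CPM with IL-33 and 22.8, 19.3, 19.5 and 20.3 CPM without it in Nbeal2-/- cells, and 23.7, 24.4, 29.1 and 27.5 CPM with IL-33 and 15.3, 13.7, 15.7 and 14.2 CPM without it in WT cells. The log2 fold change was 0.22 in Nbeal2-/- cells (SE 0.07, adjusted p = 0.0156) and 0.83 in WT cells (SE 0.07, adjusted p = 3.62e-08), a difference of -0.60 (SE 0.10, adjusted p = 0.00351). The call of Shmt1 in Nbeal2-/- cells was lost on deposited RPM values with limma (log2 fold change 0.11, adjusted p = 0.201), with upper-quartile scaling (0.17, adjusted p = 0.0625) and without IL-33 library 4 (0.19, adjusted p = 0.0533). Between genotypes Shmt1 was not called with IL-33 (log2 fold change -0.13, SE 0.07, adjusted p = 0.291), and without it Nbeal2-/- cells had more (0.47, SE 0.07, adjusted p = 0.000148). Tyms, thymidylate synthase, which uses the folate that Shmt1 charges, was looked at here after its values were seen: its difference was -0.54 (SE 0.09, adjusted p = 0.00347). With culture as a block 4 of 31 members were called for the difference, Shmt1, Shmt2 (-0.28, adjusted p = 0.044), Atf5 and Vldlr (1.88, adjusted p = 0.0017). That fit called 932 of 15470 genes, against 706 in the reported fit.

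Other genes of the pathway were followed in 7 lists. For comparison, IL-33 changed 55.1% of all genes in Nbeal2-/- cells and 57.6% in WT cells at the same threshold. Between genotypes 11.2% of all genes were called with IL-33 and 35.9% without it. Cytosolic aminoacyl-tRNA synthetases, which load amino acids onto transfer RNAs, moved together. With IL-33, 18 of 19 tested (94.7%) were higher and none lower in each genotype. The median log2 fold change was 0.43 in Nbeal2-/- cells and 0.54 in WT cells. Dars was the exception, with log2 fold changes of 0.00 and 0.00. In Nbeal2-/- against WT cells 13 of 19 (68.4%) were higher with IL-33 and 17 (89.5%) without it, none lower, with medians of 0.16 and 0.28. The count of 13 was 6 to 13 over the alternatives and fell to 6 without WT IL-33 library 1 or 2, to 7 without Nbeal2-/- IL-33 library 4 and to 8 without WT IL-33 library 4 or Nbeal2-/- IL-33 library 3. Aars, alanyl-tRNA synthetase, averaged 236 ± 5.61 CPM with IL-33 and 132 ± 4.04 CPM without it in Nbeal2-/- cells (log2 fold change 0.84, SE 0.04, adjusted p = 2.88e-11), and 221 ± 7.62 and 110 ± 6.11 CPM in WT cells (1.02, SE 0.04, adjusted p = 2.07e-12). Vars, the valyl enzyme, rose by 0.88 in WT cells (SE 0.05, adjusted p = 8.09e-11), and Eprs, the glutamyl-prolyl enzyme, by 0.62 in Nbeal2-/- cells (SE 0.04, adjusted p = 4.78e-10). Lars, the leucyl enzyme, was higher in Nbeal2-/- than in WT cells with IL-33 by 0.30 (SE 0.04, adjusted p = 6.15e-05).

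Genes of eIF2 and its control rose with IL-33 in 8 of 15 cases in Nbeal2-/- cells, with none lower, and in 9 of 15 in WT cells, with 2 lower. The share called was 53.3% in Nbeal2-/- cells (all genes 55.1%, with 27.2% higher) and 73.3% in WT cells (all genes 57.6%, with 28.9% higher). On deposited RPM values with limma 5 were higher and 1 lower in Nbeal2-/- cells. The 2 lower in WT cells became 1 without WT IL-33 library 1 or untreated WT library 2 or 4. Eif2s1, the phosphorylated alpha subunit, rose by 0.49 (SE 0.05, adjusted p = 3.59e-07) and 0.57 (SE 0.05, adjusted p = 4.73e-08) in Nbeal2-/- and WT cells. Eif2ak3, the kinase PERK of the endoplasmic reticulum, rose in Nbeal2-/- cells by 0.51 (SE 0.06, adjusted p = 8.47e-07). Eif2ak4, the amino acid sensing kinase GCN2, rose by 0.25 (SE 0.07, adjusted p = 0.00347) and 0.22 (SE 0.07, adjusted p = 0.00781) in Nbeal2-/- and WT cells, and on deposited RPM values with limma and a pseudocount of 1 these were 0.14 and 0.13, not called. Its WT call was also lost without untreated WT library 1 (0.15, adjusted p = 0.0532). Between genotypes 1 of 15 was higher with IL-33 and 7 without it, and 1 was lower without it. Over the alternatives 0 to 3 were higher with IL-33 and 5 to 8 without it, and 0 to 1 lower in each condition. The 1 higher with IL-33, the kinase gene Eif2ak1, lost its call whichever library of the contrast was left out (adjusted p from 0.052 to 0.098). Its call was also lost without the filter (adjusted p = 0.0907) and with limma at a pseudocount of 1 (adjusted p = 0.0607). The share called was 6.67% with IL-33 (all genes 11.2%) and 53.3% without it (all genes 35.9%).

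Of 8 bZIP factors, 3 were higher and 3 lower with IL-33 in Nbeal2-/- cells (75% called, all genes 55.1%). In WT cells 3 were higher and 2 lower (62.5%, all genes 57.6%). Between genotypes none was higher, and 2 were lower with IL-33 (25%, all genes 11.2%) and 4 without it (50%, all genes 35.9%). Over the alternatives 1 to 2 were lower with IL-33 and 2 to 4 without it. One of them, Cebpa, is a partner of ATF4 named here after its values were seen. Between genotypes its call with IL-33 was lost without WT IL-33 library 1, 3 or 4 or Nbeal2-/- IL-33 library 1, 2 or 4. Log2 fold changes there were -1.42 to -1.87 (adjusted p from 0.0648 to 0.187). The untreated call was lost with DESeq2 (adjusted p = 0.0561), without the filter, with limma at 0.1 and with only the untreated groups. It was also lost without untreated WT library 1, 3 or 4 or Nbeal2-/- library 1 or 2. For IL-33 in Nbeal2-/- cells the Cebpa call was lost with limma at 1 (adjusted p = 0.101) and without IL-33 library 1, 2 or 4 or untreated library 3 or 4. Atf3, a stress-induced relative of ATF4, rose to 2.54 ± 0.293 CPM with IL-33 in Nbeal2-/- cells, against 0.0435 ± 0.0389 CPM without it, and to 2.24 ± 0.527 CPM in WT cells, against 0.0707 ± 0.0534 CPM (SD, n = 4 each; adjusted p = 9.54e-10 and 3.72e-09). Jdp2, a repressor that can compete at such elements, fell by 0.80 on the log2 scale (SE 0.05, adjusted p = 7.94e-10) and 0.84 (SE 0.05, adjusted p = 3.34e-10) in Nbeal2-/- and WT cells. Of 12 other known ATF4 targets tested, 6 were higher and 2 lower with IL-33 in Nbeal2-/- cells (66.7% called, all genes 55.1%). In WT cells 5 were higher and 3 lower (66.7%, all genes 57.6%). The 2 lower in Nbeal2-/- cells became 4 on deposited RPM values with limma and 1 without Nbeal2-/- IL-33 library 2 or 4, untreated Nbeal2-/- library 1 or 3, or all libraries numbered 1. Sqstm1, the autophagy receptor p62, averaged 2960 ± 62.6 CPM with IL-33 and 941 ± 56.5 CPM without it in Nbeal2-/- cells (log2 fold change 1.65, SE 0.06, adjusted p = 8.04e-14). Gadd45a, a stress gene of growth arrest, fell by 1.21 (SE 0.08, adjusted p = 4.31e-10) and 0.93 (SE 0.08, adjusted p = 1.01e-08) on the log2 scale. Gpt2, the mitochondrial alanine aminotransferase, was higher in Nbeal2-/- than in WT cells with IL-33 by 0.75 (SE 0.13, adjusted p = 0.0014), and the pro-apoptotic Pmaip1 was lower in Nbeal2-/- cells, with log2 fold changes of -0.78 with IL-33 (SE 0.14, adjusted p = 0.00119) and -0.74 without it (SE 0.14, adjusted p = 0.000569). Of 14 other amino acid transporters, 3 were higher and 8 lower with IL-33 in each genotype (78.6% called, all genes 55.1% and 57.6%). Slc16a10 fell by 1.16 on the log2 scale in each genotype (SE 0.11, adjusted p = 4.55e-08 in Nbeal2-/- cells and 5.07e-08 in WT cells). Slc7a6, an exchanger of cationic and neutral amino acids, fell by 0.83 (SE 0.06, adjusted p = 4.6e-09) and 0.99 (SE 0.06, adjusted p = 4.82e-10). Of 14 other folate enzymes, 4 were higher and 7 lower with IL-33 in Nbeal2-/- cells (78.6% called, all genes 55.1%). In WT cells 4 were higher and 6 lower (71.4%, all genes 57.6%).

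Of 24 genes of amino acid sensing by mTORC1, 7 were higher and 7 lower with IL-33 in Nbeal2-/- cells (58.3% called, all genes 55.1%). In WT cells 7 were higher and 11 lower (75%, all genes 57.6%). On deposited RPM values with limma and a pseudocount of 1, 3 were higher and 9 lower in Nbeal2-/- cells and 3 higher and 11 lower in WT cells. The 7 higher in WT cells also became 3 without WT IL-33 library 2 and 4 without WT IL-33 library 3. Sesn3, a relative of Sesn2, averaged 3.73 ± 0.752 CPM with IL-33 and 8.54 ± 1.64 CPM without it in Nbeal2-/- cells, and 9.74 ± 0.806 CPM with IL-33 and 28.6 ± 3.83 CPM without it in WT cells (SD, n = 4 each). It was lower in Nbeal2-/- than in WT cells, with log2 fold changes of -1.39 with IL-33 (SE 0.15, adjusted p = 1.54e-05) and -1.74 without it (SE 0.14, adjusted p = 2.32e-07). Castor2, a relative of the arginine sensor, was higher in Nbeal2-/- cells by 0.78 with IL-33 (SE 0.08, adjusted p = 9.52e-06) and 0.57 without it (SE 0.08, adjusted p = 6.39e-05).

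**Figure D5:**
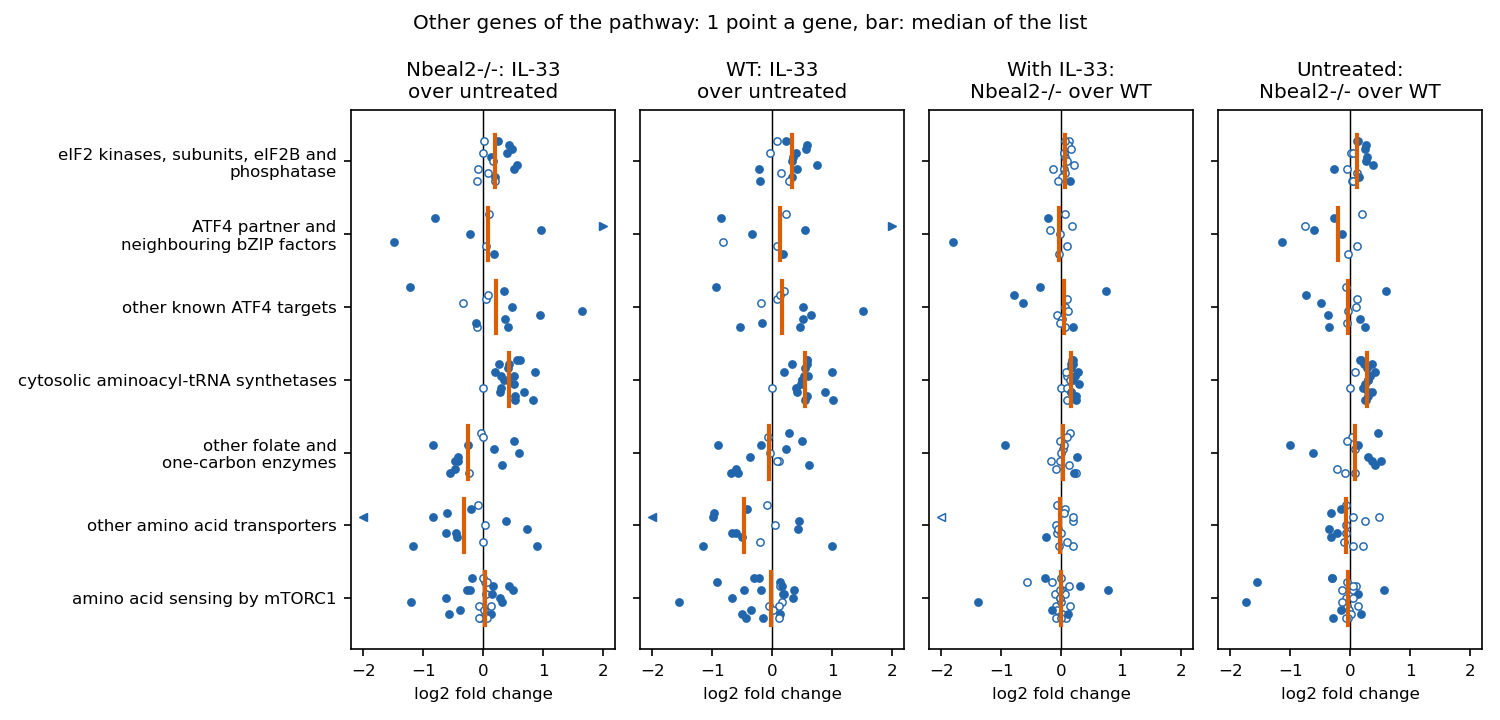
Log2 fold change (x axis) of each tested gene of the 7 pathway lists, 1 point a gene, filled where the adjusted p was under 0.05, in the IL-33 contrasts (left pair) and the genotype contrasts (right pair); orange bars are list medians and triangles mark values beyond the axis. Apart from Dars, at 0.00 for IL-33 in each genotype, the aminoacyl-tRNA synthetases lie to the right of 0, with medians of 0.43 and 0.54 for IL-33 in Nbeal2-/- and WT cells.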

How the data were processed

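Counts per gene, RPM and RPKM for 16 libraries were used as the authors deposited them. Per the labels' protocols, directional poly(A) libraries were made from total RNA. Per the submitters' processing notes, bcl2fastq 2.20.0.422, featureCounts 1.6.5 and genome build GRCm38 were used; for the aligner, annotation release and strand setting the entry is: not given in the sources used here. The deposited RPM equalled counts scaled by the column total (largest difference 4.91e-11), and RPKM as deposited served only to rank levels between genes. The deposited counts were tested in R 4.3.3 with edgeR 4.0.16: filterByExpr left 15470 genes, libraries were scaled by TMM, and 4 group means were fitted to all 16 libraries with the robust quasi-likelihood test. "Called" means a Benjamini-Hochberg adjusted p under 0.05 over all genes tested; SE is the log2 fold change over the root of its F statistic. Common biological variation was 9.56%, and the smallest chi-square per degree of freedom between libraries of a group was 5.34. Same-numbered libraries of a genotype deviated together (r 0.171 to 0.34 in Nbeal2-/- cells and 0.288 to 0.369 in WT cells), so culture number pairs the IL-33 contrasts. Across genotypes not every such pair deviated together, and no pairing was assumed in the reported fit. Alternatives were DESeq2 1.42.0, limma 3.58.1 on log2(RPM + 1) or log2(RPM + 0.1), other scaling and filters, and libraries left out. A culture block was used for the IL-33 contrasts and their difference, and replicate number as a shared factor for the genotype contrasts. The fit was tested on simulated data. Named genes are all 32 members, Nbeal2 and, in each pathway list, up to 2 called genes with the smallest p per contrast; Dars, Eif2ak4 and Cebpa, and the Tyms difference, were named after their values were seen. The members and lists were chosen with earlier results of these data known. Exon overlaps came from GENCODE M21 positions and promoters from RefSeq.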

Additional observations from a re-analysis of the deposited data

Results flagged for a closer look

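In 10 of 132 groups of 4 libraries tested, 1 library lay far from the other 3 by Dixon's test; chance flags about 1 in 20 groups. Of these, 8 were libraries numbered 1. In untreated Nbeal2-/- cells library 1 had the highest Eif4ebp1 (17.5 CPM, others 12.1 to 12.7), Psph (18.6 CPM, others 14.9 to 15.3), Mthfd2 (143 CPM, others 127 to 130) and Slc3a2 (558 CPM, others 475 to 478), and library 2 the highest Slc6a9 (75.5 CPM, others 57.4 to 60.2). In WT cells with IL-33 library 1 had the lowest Slc1a4 (5.91 CPM, others 6.69 to 6.78) and library 3 the highest Slc7a1 (89.8 CPM, others 83.7 to 84). In untreated WT cells library 1 had the highest Psph (16.3 CPM, others 12.9 to 13.2). Nbeal2 was lowest in library 1 of WT cells with IL-33 (183 CPM, others 249 to 258) and without it (224 CPM, others 413 to 447). What set these libraries apart was not tested.

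The IL-33 response of Shmt1 differed between genotypes by a test of the difference itself, by -0.605 on the log2 scale in Nbeal2-/- against WT cells.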

How the results depend on the processing

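The 85 member results examined were those called in the reported fit or, for IL-33 and the difference of responses, with culture as a block. Calls gained with that block follow from this choice. Calls gained by members outside this choice were not counted, so between genotypes no gain could be counted. Of 676 values under alternatives other than single libraries left out, 630 kept direction and side of the threshold, 28 lost the call, 18 gained it and none reversed. With 1 library left out 682 of 712 kept both, 24 lost and 6 gained the call, and none reversed. Members not called in the reported fit, including those called only with the block, had the opposite sign in 71 of 1442 values. Only the groups compared gave 3099 genes called for genotype with IL-33, against 1730, and 3836 untreated, against 5549. Members called in that fit were 17 higher and 1 lower with IL-33, and 15 higher and 2 lower untreated. In the reported fit Vldlr was the member called lower for genotype with IL-33. It became 0 members without the filter, with limma at either pseudocount, and without the 4 libraries numbered 1 (chosen after seeing the data). For the difference of responses, DESeq2 called 1207 genes and 3 members (3 lower), the set without libraries numbered 1 called 1267 genes and 3 members (3 lower), and limma at either pseudocount and the unfiltered fit called 2 members (2 lower), against 706 genes and 1 member. The culture block called 932 genes and 4 members (2 higher, 2 lower). A different model, with replicate number as a factor shared by both genotypes, called 22 members between genotypes untreated, against 19, and 15 with IL-33, against 14. It called 5938 genes untreated, against 5549, and 2032 with IL-33, against 1730. Same-numbered libraries of the genotypes, which it pairs, had r of 0.506, 0.163, -0.035 and 0.067 untreated and 0.238, -0.039, 0.039 and 0.018 with IL-33 (numbers 1 to 4). The culture block changed no other member's IL-33 call than those given above. In the pathway lists Eif2b1 lost its call with that block in Nbeal2-/- cells (0.13, adjusted p = 0.052). With 1 library left out, members called were 20 to 23 and 22 to 23 for IL-33 in Nbeal2-/- and WT cells, 13 to 14 (0 to 1 lower) and 18 to 21 (2 to 4 lower) for genotype with IL-33 and untreated, and 1 to 4 (0 to 2 higher, 1 to 4 lower) for the difference, where genes called were 443 to 1170. With limma at 0.1 the median of all genes moved by -0.11 for IL-33 in Nbeal2-/- cells. Chac1, Aldh1l2, Slc7a11 and Vldlr rest on few counts.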
